A study of Mus musculus with 8 samples.

Results

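Seminolipid, the main sulfated glycolipid of male germ cells, is followed here through the enzymes that make it and the sulfatase that breaks it down. The 5 genes, Gal3st1, Ugt8a, Gnpat, Agps and Arsa, were chosen by their place in that pathway and found by gene symbol, which gave 7 of the 45101 probe sets on the arrays and 5 of the 17727 genes named through RefSeq. Gal3st1 headed the choice because the study had named it for its difference between genotypes on these same arrays, so its difference is given below as a description without a test.

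RNA came from whole testes taken on postnatal day 23 and each sample was hybridised to its own Affymetrix Mouse430_2 array. Wildtype was the label of 5 samples, replicates 1, 2, 4, 6 and 7, and mutant for Ctcfl that of 3 samples, replicates 3, 5 and 8. According to the study's methods, mutants were homozygous for the Ctcfl del allele, in which the first exons had been removed by crossing to mice expressing Cre, and the line was kept on a C57/Bl6 background. The study's text calls the controls heterozygous littermates, so they may carry a del allele as well, and the labels' name is kept here. CTCFL, also known as BORIS, is the testis paralog of the zinc finger protein CTCF, and the arrays addressed which transcripts differ in testis lacking it before the age at which the study saw the mutant testis degenerate. The targeted gene, Ctcfl, was not analysed here and gave no check of the labels.

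Seminolipid is an ether lipid that carries a sulfated galactose. Its synthesis starts in the peroxisome, where GNPAT acylates dihydroxyacetone phosphate and AGPS exchanges the acyl chain for an alkyl chain through an ether bond. UGT8A then adds galactose to the ether lipid in the endoplasmic reticulum, and GAL3ST1 (cerebroside sulfotransferase) adds sulfate in the Golgi. ARSA (arylsulfatase A) removes that sulfate in the lysosome. The lipid is made mainly in spermatocytes and kept by later germ cells, and mice lacking Gal3st1 or Ugt8a arrest in meiosis. The same pair of enzymes makes sulfatide of myelin in Schwann cells and oligodendrocytes.

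RefSeq (GRCm38.p6) places Gal3st1 on chromosome 11 at 3983636 to 3999328 on the plus strand, with 7 transcripts from 3 start sites, of which the first and the last lie 6297 bases apart. The gene had a single probe set, 1454078_a_at, and the suffix of its name marks a set whose probes match several transcripts of 1 gene, so the start sites could not be told apart by level. The windows around the first and the last start are shown because Gal3st1 is the gene on which the results turn and the window is where a factor of the CTCF family would be sought. Each covers 250 bases before and 50 bases from the start, and capitals mark matches to AGNNGGC or its reverse complement, a stretch of the core motif shared by CTCF and CTCFL.
Gal3st1 first start (chr11:3983386-3983685, plus strand): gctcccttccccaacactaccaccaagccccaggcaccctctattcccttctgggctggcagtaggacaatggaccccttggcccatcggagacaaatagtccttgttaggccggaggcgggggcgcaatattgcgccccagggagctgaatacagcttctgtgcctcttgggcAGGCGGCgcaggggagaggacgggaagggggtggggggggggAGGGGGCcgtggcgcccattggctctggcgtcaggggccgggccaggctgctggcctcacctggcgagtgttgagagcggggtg
Gal3st1 last start (chr11:3989683-3989982, plus strand): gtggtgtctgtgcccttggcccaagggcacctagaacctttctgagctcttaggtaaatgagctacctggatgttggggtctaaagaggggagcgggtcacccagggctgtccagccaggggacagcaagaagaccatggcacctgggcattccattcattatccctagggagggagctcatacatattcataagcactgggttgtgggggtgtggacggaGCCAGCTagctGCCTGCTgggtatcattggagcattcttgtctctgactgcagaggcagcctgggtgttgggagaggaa

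Both windows held 2 matches to AGNNGGC, and their GC contents were 67.0% and 56.0%. The middle start lies 15 bases after the first and its window also held 2 matches. Of 32851 RefSeq promoter windows of the same length, 59.8% held the motif on either strand. The short words CCCTC, present 2 times in each Gal3st1 window on either strand, and TGACG, a part of the cyclic AMP response element, present 1 time at the first start and absent from these letters at the last, were held by 66.0% and 20.8% of all windows. The window of Ugt8a (chromosome 3, minus strand) held 3 matches to AGNNGGC, that of Gnpat (chromosome 8) 4, that of Arsa (chromosome 15, minus strand) 2 and that of Agps (chromosome 2) 0. The matches are letters in a window and say nothing of binding. The study reported binding of CTCFL, but not of CTCF, at Gal3st1 in ES cells made to express CTCFL. Whether that site lies in these windows was not examined.

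Levels are log2 values as deposited, on which a difference of 1 is a doubling, and levels of different probe sets are not set against each other. Gal3st1 stood at 6.37, 6.20, 6.59, 6.43 and 6.53 in wildtype replicates 1, 2, 4, 6 and 7. It stood at 5.77, 5.82 and 5.91 in mutant replicates 3, 5 and 8. All mutant arrays lay below all wildtype arrays, and the nearest arrays of the 2 groups were 0.28 apart. The group means were 6.42 ± 0.15 (SD, n = 5) and 5.83 ± 0.07 (SD, n = 3). The difference in level, mutant minus wildtype, was -0.59 with a standard error of 0.09, and the wildtype level was 1.50-fold the mutant level on the linear scale. Over all arrays of both groups, 46.2% of probe sets had a lower mean level than Gal3st1, which was thus below the median probe set. In whole testis RNA, fewer cells of a type and less RNA per cell cannot be told apart. The study also checked its array results by real-time RT-PCR and cited a match for Gal3st1 in another Ctcfl knockout. In ES cells made to express CTCFL it reported a rise of Gal3st1. These were not examined here.

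Among the 7 probe sets of the 5 genes, Gal3st1 was the single one whose arrays did not overlap between genotypes, and it was lower in the mutant. Over all probe sets, 592 of 45101 (1.31%) were lower without overlap and 624 (1.38%) were higher without overlap. With limma across all probe sets, 0 of 45101 (0.0%) passed an adjusted p of 0.05, against 1564 at an unadjusted p under 0.05. None of the 6 probe sets of the other 4 genes was at an unadjusted p under 0.05.

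**Figure D1:**
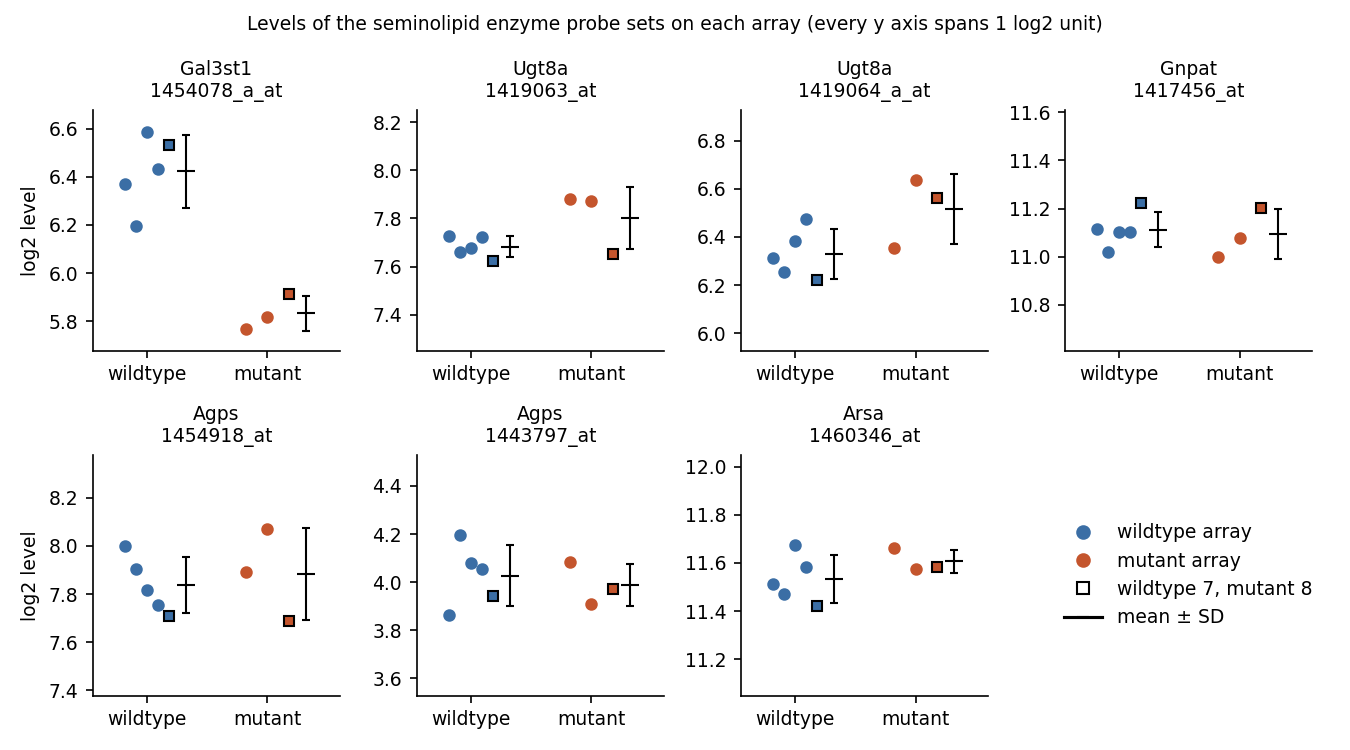
Each panel plots the log2 level of 1 probe set (y axis, spanning 1 log2 unit) on the 5 wildtype arrays (blue) and 3 mutant arrays (orange), with bars for mean and SD and squares for wildtype replicate 7 and mutant replicate 8. In Gal3st1 alone the groups do not overlap, with mutant arrays from 5.77 to 5.91 and wildtype arrays from 6.20 to 6.59.

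Ugt8a acts just before Gal3st1 and makes the galactolipid that is sulfated. Its main probe set 1419063_at stood at 7.73, 7.66, 7.68, 7.72 and 7.62 in wildtype replicates 1, 2, 4, 6 and 7, and at 7.88, 7.87 and 7.65 in mutant replicates 3, 5 and 8. Mutant replicates 3 and 5 lay above every wildtype array, and mutant replicate 8 lay within the wildtype range. The difference, mutant minus wildtype, was 0.12 with a standard error of 0.07 and a 95% interval of -0.043 to 0.28. It did not pass the test (adjusted p = 1.0 with limma, and p = 0.179 in an exact two-sided permutation test of the 8 arrays). The second probe set, 1419064_a_at, stood at 6.31, 6.26, 6.38, 6.48 and 6.22 in wildtype and at 6.35, 6.63 and 6.56 in mutant testis. Its difference of 0.19 had the same sign, with an interval of -0.0087 to 0.38. At both probe sets the interval left out a reduction in Ugt8a of the size seen in Gal3st1.

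Gnpat catalyses the first peroxisomal step. It stood at 11.12, 11.02, 11.10, 11.10 and 11.22 in wildtype and at 11.00, 11.08 and 11.20 in mutant testis, so that mutant replicate 3 was lowest of all and the other 2 lay within the wildtype range. The difference, mutant minus wildtype, was -0.019 with a standard error of 0.07 and an interval of -0.18 to 0.14 (exact two-sided permutation p = 0.679).

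Agps forms the ether bond itself. Its main probe set 1454918_at stood at 7.999, 7.90, 7.82, 7.76 and 7.71 in wildtype and at 7.89, 8.07 and 7.69 in mutant testis. The mutant arrays held both the highest and the lowest of the 8 values, and their SD of 0.19 was larger than the difference of 0.046 (interval -0.18 to 0.27, exact two-sided permutation p = 0.679). A second probe set, 1443797_at, ranged from 3.86 to 4.19 over the 8 arrays, a low level that only 10.4% of probe sets had a mean below, and differed by -0.039.

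Arsa, which takes sulfate off the finished lipid, stood at 11.51, 11.47, 11.67, 11.58 and 11.42 in wildtype and at 11.66, 11.58 and 11.58 in mutant testis. All 3 mutant arrays lay within the wildtype range. The difference was 0.074, with a standard error of 0.07 and an interval of -0.090 to 0.24 (exact two-sided permutation p = 0.357). The 4 exact tests could not give a p below 0.0357 with 5 and 3 arrays, and the limma adjusted p of each gene was 1.0. The intervals of the main probe sets of Gnpat, Agps and Arsa, too, left out a reduction as large as the 0.59 of Gal3st1, but they leave room for changes of up to 0.18 downwards and 0.27 upwards.

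The genes around the pathway were then examined in 6 groups, with 24 of 27 listed genes matched to 53 probe sets. None of the 53 probe sets passed the test at an adjusted p of 0.05, none was at an unadjusted p under 0.05 and none separated the genotypes without overlap. At the main probe set of each gene, 20 of 24 genes had a positive difference, mutant minus wildtype, and 4 a negative one. The median difference was 0.047 at the main probe sets and 0.035 over the 53 probe sets. Over all 45101 probe sets it was 0.0032, with 23219 positive and 21882 negative. That count takes every probe set of a gene, so it is not a like measure for the 20 of 24. Some genes had other probe sets of the opposite sign, as given below.

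Ether lipid supply covered FAR1 and FAR2, which reduce fatty acids to the alcohols that AGPS uses, DHRS7B, which reduces the keto group of the alkyl product, PEX5 and PEX7, the receptors that import peroxisomal enzymes, and AGMO, which cleaves ether bonds. All 6 genes had positive differences at their main probe sets, between 0.015 for Pex7 and 0.22 for Agmo. Other probe sets of Far1 differed by -0.019, -0.029, 0.21 and 0.17, and those of Far2 and Pex5 by 0.10 and 0.088. Agmo stood at 4.32, 4.36, 4.28, 4.16 and 4.29 in wildtype and at 4.44, 4.76 and 4.31 in mutant testis. Without mutant replicate 5 the difference was 0.094, and the level was low, with 16.5% of probe sets below it (interval -0.0017 to 0.44, adjusted p = 1.0 with limma). Peds1, which makes plasmalogens, was listed but had no matched probe set.

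UDP-galactose, the sugar donor of UGT8A, is made with the help of UGP2, GALK1 and GALT and carried into the Golgi by SLC35A2. These 4 genes differed at their main probe sets by -0.058 to 0.035, 2 of them with a positive sign. The largest of these differences was that of Galt, which stood at 7.65, 7.75, 7.57, 7.65 and 7.60 in wildtype and at 7.62, 7.55 and 7.58 in mutant testis (interval -0.20 to 0.087).

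The sulfate donor of GAL3ST1 is PAPS, made by PAPSS1 and PAPSS2 from sulfate that SLC26 transporters bring into the cell, carried into the Golgi by SLC35B2 and SLC35B3 and, after use, cleared as PAP by BPNT2. The 7 genes differed at their main probe sets by -0.060 (Bpnt2) to 0.097 (Slc35b2), with 6 positive. Papss2 differed by 0.094 at its main probe set, but by -0.071, -0.047 and -0.081 at the others. The other probe set of Slc35b2 differed by -0.020. Those of Bpnt2 (-0.070 and -0.073) and Slc26a8 (0.13) kept the sign. Slc35b2 stood at 7.68, 7.77, 7.82, 7.92 and 7.55 in wildtype and at 7.94, 7.86 and 7.73 in mutant testis, so that the groups overlapped (interval -0.11 to 0.30).

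Arsa needs partners, namely SUMF1, which activates sulfatases, and saposin B cut from the product of Psap, while GALC removes the galactose afterwards. Their differences at the main probe sets were 0.061 to 0.13. Psap stood at 10.41, 10.62, 10.31, 10.40 and 10.29 in wildtype and at 10.63, 10.58 and 10.40 in mutant testis (interval -0.071 to 0.34). Galc, named after its values were seen, had the widest spread within a genotype of the 24 genes at their main probe sets. Its main probe set stood at 8.24, 7.50, 8.22, 8.25 and 7.65 in wildtype and at 8.12, 8.31 and 7.67 in mutant testis. The low arrays there were wildtype replicates 2 and 7 and mutant replicate 8, and the interval of the difference ran from -0.41 to 0.53. Its other probe sets did not share these low arrays. At one of them wildtype replicate 7 (6.97) and mutant replicate 8 (7.13) were highest of their genotype. The remaining one, of low level, lay between 3.93 and 4.15 on all arrays.

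Of the related galactose 3-O-sulfotransferases, Gal3st2 and Gal3st4 had probe sets and differed by 0.036 and -0.0029, while Gal3st3 had no matched probe set. Gal3st2 stood at 6.74, 6.87, 7.05, 6.90 and 6.80 in wildtype testis, with mutant replicate 5 lowest of all at 6.73 and the other 2 mutant arrays inside the wildtype range, and the interval of its difference was -0.17 to 0.24. On the ceramide branch, which supplies other glycolipids of germ cells, FA2H adds a hydroxyl group to fatty acids and UGCG makes glucosylceramide. Fa2h and Ugcg differed at their main probe sets by 0.023 and 0.035. The other probe sets of Ugcg differed by 0.054, 0.19 and -0.0077. Ugcg stood at 7.84, 7.64, 7.57, 7.67 and 7.44 in wildtype and at 7.64, 7.83 and 7.53 in mutant testis, and Cers3 had no matched probe set.

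**Figure D2:**
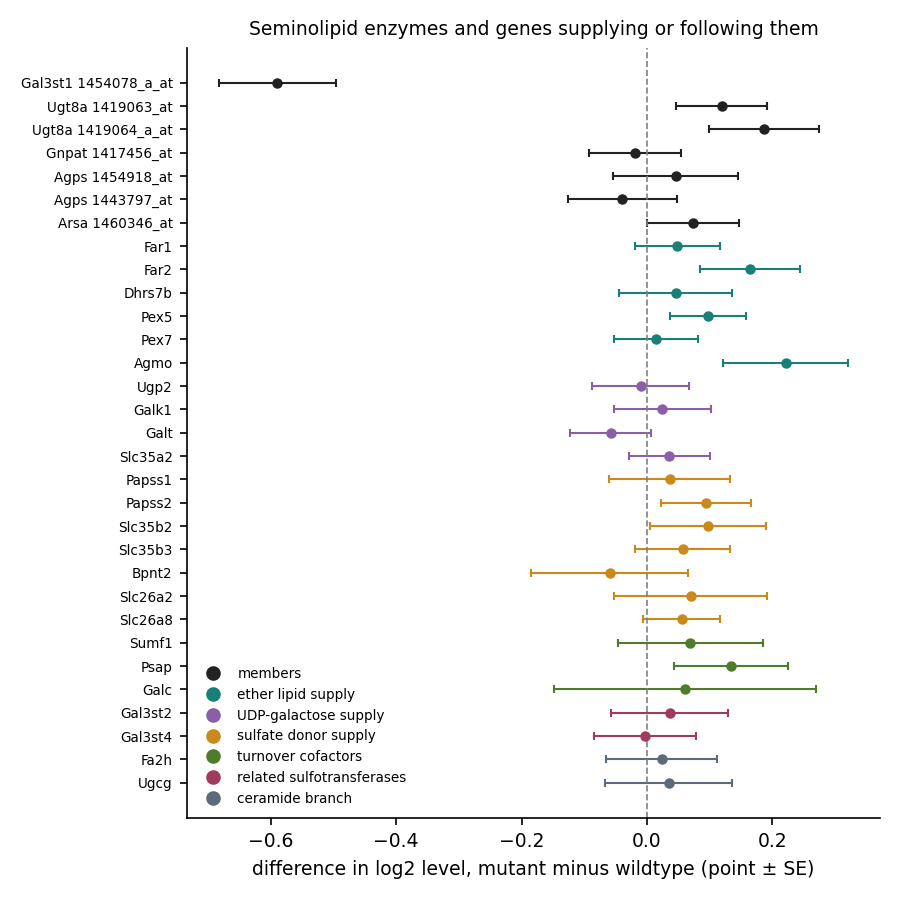
Points give the difference in log2 level, mutant minus wildtype, with bars of ± 1 SE, for the 7 probe sets of the seminolipid enzymes and the main probe set of 24 genes around the pathway, coloured by group. Gal3st1 lies at -0.59, and every other point lies between -0.060 and 0.22.

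A principal component that took up 44.9% of the variance separated a pair of arrays, wildtype replicate 7 with mutant replicate 8, from the remaining 6, and this split crossed the genotypes. Spermatid markers averaged 11.05 and 10.50 on these 2 arrays and 8.12 to 8.90 on the rest, and fat cell markers averaged 9.12 and 9.14 against 5.82 to 7.07. Array medians lay between 6.40 and 6.45, and Gapdh control probe sets at the 3′ end exceeded those at the 5′ end by 0.31 and 0.33 on the pair against 0.041 to 0.22 on the rest. The same measure for Actb did not separate the pair, at 1.13 and 1.03 against 0.75 to 1.03 on the rest. The part of these in the results was not tested.

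The enzymes were therefore followed within each set of arrays. Gal3st1 differed by -0.60 among the 6 other arrays and by -0.62 between the pair, where a single array of each genotype gives no spread. Gal3st1 was chosen for its difference and its groups do not overlap, so both values had to be negative. Ugt8a differed by 0.18 among the 6 arrays and by 0.031 between the pair at its main probe set, and by 0.14 and 0.34 at the other. Gnpat differed by -0.047 and -0.019, Arsa by 0.059 and 0.16, and Agps by 0.11 and -0.020, a change of sign.

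The enzymes did not move as a block between the pair and the other arrays. Gnpat was highest of its genotype on both arrays, by 0.14 over the mean of the other wildtype arrays and 0.17 over that of the other mutant arrays. At their main probe sets, Ugt8a (-0.076 and -0.22) and Agps (-0.16 and -0.29) were lowest of their genotype on both. Their second probe sets were not lowest on both, at -0.14 and 0.067 for Ugt8a and -0.10 and -0.026 for Agps. Gal3st1 was higher on both arrays than the mean of the others, by 0.13 and 0.12, though wildtype replicate 4 exceeded replicate 7. Arsa departed by -0.14 and -0.037 and was lowest on the wildtype array alone. Over all probe sets 11.2% were highest and 15.2% lowest of their genotype on both arrays. Of the 24 genes around the pathway, Slc26a8, a testis anion transporter, was highest on both at its main probe set, and Slc26a2, Slc35b2, Psap and Ugcg were lowest on both.

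**Figure D3:**
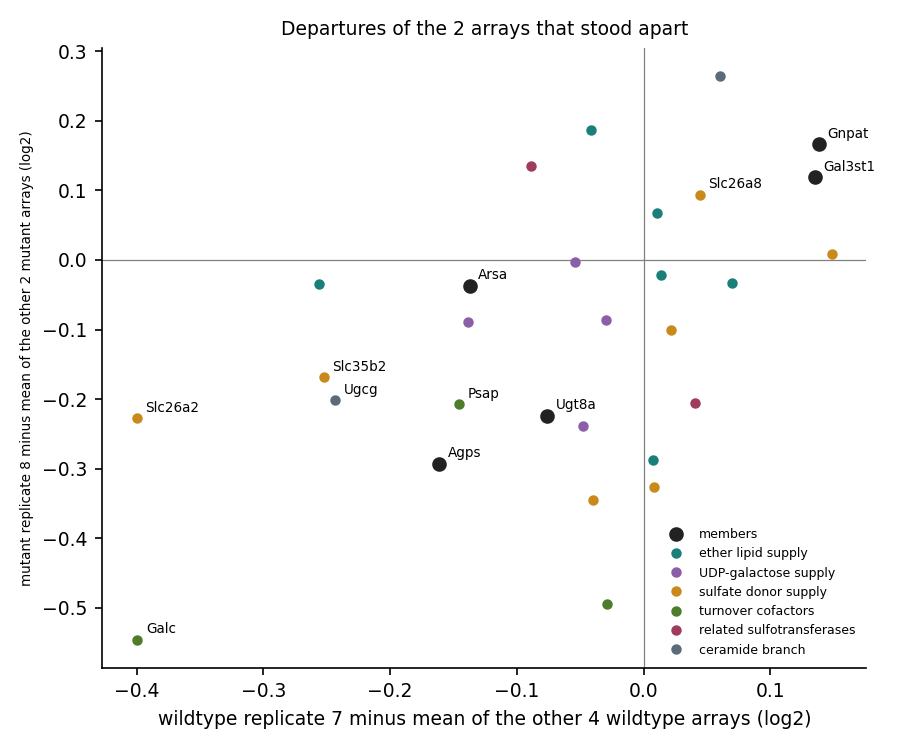
Each point is 1 gene at its main probe set, placed by how far wildtype replicate 7 departed from the other 4 wildtype arrays (x axis, log2) and mutant replicate 8 from the other 2 mutant arrays (y axis, log2). Gnpat (0.14 and 0.17) and Gal3st1 (0.13 and 0.12) lie at the upper right, while Agps and Ugt8a lie at the lower left.

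Because seminolipid is made in spermatocytes, Gal3st1 was also set beside markers of the germ cell stages on the same arrays, a comparison chosen after the data had been seen. The mean of 7 spermatocyte markers lay between 10.94 and 11.15 in wildtype and between 10.86 and 11.03 in mutant testis, a difference of -0.10, with 5 of 7 genes lower. The lowest of them was Sycp1, the transverse filament protein of the synaptonemal complex, which differed by -0.25 without overlap, and Sycp3, Spo11, Meiob and Piwil1 were also below the wildtype mean. Dmc1, the meiotic recombinase, differed by 0.17 and Ldhc, the germ cell lactate dehydrogenase, by 0.016. Spermatogonia markers averaged 8.17 to 8.32 in wildtype and 8.23 to 8.49 in mutant testis, a difference of 0.13.

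After subtraction of the spermatocyte mean on each array, Gal3st1 did not overlap between genotypes, at -4.87 to -4.39 in wildtype and -5.22 to -4.97 in mutant testis, and the difference was -0.49. After subtraction of the spermatogonia mean it was -0.72, again without overlap. Gal3st1 was chosen for its difference on these arrays, while the 2 marker means themselves differed by -0.10 and 0.13. The subtractions could therefore hardly have removed the difference, and they are no test of cell numbers. Schwann cell markers, from another cell type that uses GAL3ST1, averaged 6.85 to 7.01 in wildtype and 6.90 to 6.97 in mutant testis, with 3 genes higher and 2 lower and a difference of 0.0095. The remaining marker means differed, mutant minus wildtype, by -0.17 for spermatids, -0.22 for fat cells, 0.093 for Sertoli cells, 0.15 for Leydig cells and 0.040 for peritubular cells. The part of these in the level of Gal3st1 was not tested.

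**Figure D4:**
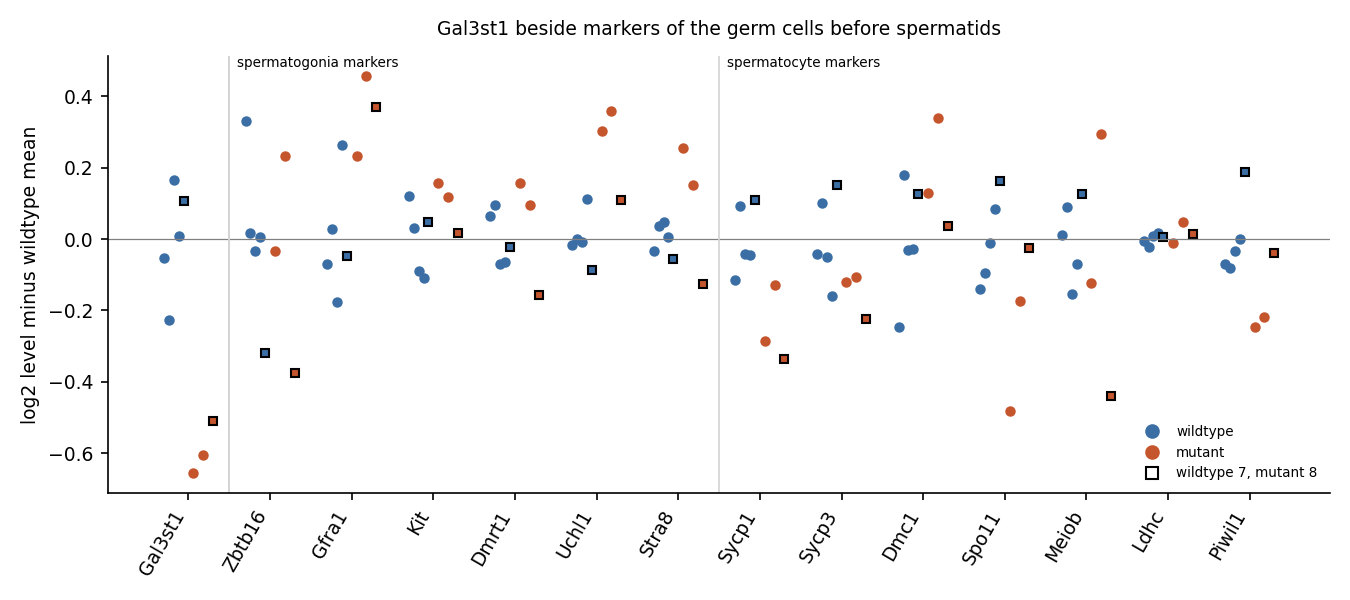
Log2 levels of Gal3st1, 6 spermatogonia markers and 7 spermatocyte markers on each array, each gene set to its wildtype mean (y axis), with wildtype arrays in blue, mutant arrays in orange and squares for wildtype replicate 7 and mutant replicate 8. The mean difference is -0.59 for Gal3st1, a gene chosen for that difference, and -0.25 for Sycp1, the lowest of the spermatocyte markers.

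The genes with a pattern most like that of Gal3st1 were sought by Pearson correlation over the 8 arrays among 19932 probe sets with a single named gene and a level above the median. The values share arrays and normalisation, and a high r here follows largely from a lower level in all mutant arrays, so the list is a description. It was led by Itsn1 (r = 0.956), Tmem258 (0.952), Sptlc1 (0.948), Nol8 (0.919) and Riok1 (0.916). All 5 were lower in mutant testis without overlap, by -0.32, -0.11, -0.25, -0.17 and -0.16. Itsn1 is an endocytic scaffold, Sptlc1 a subunit of serine palmitoyltransferase, the first enzyme of sphingolipid synthesis, and Nol8 and Riok1 act in ribosome production. Each differed by less on the log2 scale than Gal3st1, which was itself chosen for its difference on these arrays.

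Once the mean of each genotype was removed, the leading genes were others, namely Map2k7 (r = 0.959), 4933409D19Rik (0.953), Samd10 (0.947), Adat3 (0.944) and Hcn3 (0.944). None of the 5 leading genes was shared between the lists. Of the seminolipid enzymes, Gnpat followed Gal3st1 most closely, with r of 0.37 over the 8 arrays and 0.69 with genotype means removed. Arsa gave -0.29 and 0.33. The main probe set of Ugt8a gave -0.68 and -0.34, and that of Agps -0.35 and -0.52. The second probe set of Ugt8a gave -0.53 and 0.30, and that of Agps 0.030 and -0.39. Values over the 8 arrays also carry the lower Gal3st1 level of the mutant arrays, for which the gene was chosen. With so few arrays and probe sets of a gene that differ, the values cannot decide whether the transcripts of the pathway vary together.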

How the data were processed

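Per the labels and the study's methods, the authors hybridised biotinylated cRNA of total testis RNA to Affymetrix arrays and made log2 levels with quantile normalisation and RMA background correction. These deposited log2 values were used without a filter. The authors' columns of group means, fold changes and p-values, and the deposited tables holding nothing else, were not used. RefSeq names (GRCm38.p6) were matched through Entrez IDs for 33571 of 36858 probe sets with a single ID (91.1%).

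Groups came from sample titles. No label says how the animals relate, so p-values measure the spread between these samples. The limma package (3.58.1, under R 4.3.3) fitted genotype alone to all 45101 probe sets by lmFit, with moderated two-sided tests by eBayes and Benjamini-Hochberg adjustment. The fit was tested on simulated data. Python 3.11.15, numpy 2.4.6, pandas 2.3.3, scipy 1.17.1 and matplotlib 3.10.9 served for exact permutation over 56 arrangements, summaries and plots. The number of arrays limits the precision.

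The genes, lists and tests were chosen with earlier results of these data known, the pair of arrays included. A further gene of the wider lists is not reported here. Named were all probe sets of the 5 enzymes. Of each wider list, genes passing an adjusted p of 0.05, genes without overlap and the gene with the largest difference at its main probe set were named. The main probe set carries none of the suffixes _s_, _x_ and _a_ where such a set exists, then has the highest level. The 5 probe sets most like Gal3st1, before and after removing genotype means, completed the rule.

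Alternatives were leaving out each array, leaving out the pair, the pair as a block, centring on the median, repeated quantile normalisation, an offset of 64 on the linear scale, only probe sets above the median level, an intensity trend with a robust prior, array weights and other probe sets.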

Additional observations from a re-analysis of the deposited data

Results flagged for a closer look

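None of the 7 probe sets of the enzymes and none of the genes around them that the rule named had a wildtype array far from the others by Dixon's ratio at 95% in the group of 5. Over the 23 measures examined, 4 marker means did, where chance flags about 1 in 20. Wildtype replicate 7 had a spermatid marker mean of 11.05 (next array 8.90), a Leydig marker mean of 9.26 (next 8.90) and a fat cell marker mean of 9.12 (next 7.07). Wildtype replicate 6 had a Sertoli marker mean of 9.04, below the next at 9.14. The part of these in the enzymes' levels was not tested.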

How the results depend on the processing

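Gal3st1 kept its direction in the 15 alternatives that gave a value, from -0.65 to -0.31. The gene was chosen for this difference and its groups do not overlap, so leaving out arrays could not have turned the sign. The difference was smaller, at -0.31, with the offset of 64 on the linear scale, which compresses differences at low levels. Gal3st1 was below the level needed for the fit above the median. Leaving out each array in turn gave -0.65 to -0.55. Ugt8a (0.080 to 0.19) and Arsa (0.046 to 0.11) kept their sign under all alternatives run. Gnpat ranged from -0.074 to 0.029 with each array left out, and turned positive without wildtype replicate 7 (0.0086) and without mutant replicate 3 (0.029). Agps ranged from -0.047 to 0.14, turned negative without mutant replicate 5 (-0.047), and was negative at its other probe set (-0.039). The causes were not tested. Of the genes around the pathway, Gal3st2 changed sign in 4 of 16 alternatives and Ugcg in 2 of 16, and Agmo moved to 0.057 with the offset. Other probe sets of these genes were not among the alternatives. The count of probe sets of the pathway past the threshold was 0 in all 16 alternatives. No paired analysis was possible because the labels do not say which animals were littermates. The Gal3st1 comparisons with marker means were chosen after seeing the data.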
